A study of Mus musculus with 54 samples.

Results

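Epiblast-like cells (EpiLC) of the line labelled Ovol2KO were set against wild type (WT) EpiLC, using 2 libraries of each, 4 of the 54 messenger RNA libraries of the series. The 4 were taken by their column names. The genotype of the first pair is given as Ovol2 mutant and that of the second as wild type, and both have the strain C57BL/6 X 129/SvJ. The series followed 9 lines through 3 stages: embryonic stem cells (ESC), EpiLC, which model the early post-implantation epiblast, and day 2 primordial germ cell-like cells (PGCLC). Lines labelled TKO, Ovol1KO and Ovol3KO, also with 2 EpiLC libraries each, served for comparison, as did ESC and PGCLC of Ovol2KO and WT. The labels spell out neither TKO nor how the mutations were made, nor whether a line is 1 clone, and nothing says that the 2 libraries of a group came from separate cultures. The p-values therefore measure only the spread between libraries of the same group, pooled over all groups in a fit.

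Ovol2 encodes a zinc finger transcription factor of the OVO family, known as a repressor of Zeb1 and of other genes of the epithelial-mesenchymal transition. Epithelial cells are joined by tight and adherens junctions, are polarised into apical and basolateral surfaces, and express keratins. In that transition, Zeb and Snail factors repress epithelial genes through E-box sequences, and vimentin and N-cadherin replace part of the epithelial inventory. The epiblast is an epithelium, so EpiLC express much of that inventory.

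Depth was 11.79 and 3.85 M recovered reads in the Ovol2KO-labelled libraries and 3.62 and 17.49 M in the WT libraries, so each group had 1 deep and 1 shallow library. Values are TPM, a length-normalised share of the mRNA that allows genes to be compared per length. Fold changes are differences of log2(TPM + 1) with their standard errors, and understate the change of low genes. A gene was called changed at an adjusted p under 0.05 (limma, Benjamini-Hochberg adjustment, BH, over 13179 genes) with a log2 fold change of at least 1 either way. Both pairs had the profile of EpiLC. The 6 EpiLC markers (Fgf5, Otx2, Pou3f1, Dnmt3b, Pim2, Car4) summed to 2940 and 2920 TPM in Ovol2KO-labelled EpiLC, against 2700 and 2710 in WT EpiLC, and to 110 and 109 in WT ESC. The 6 ESC markers summed to 46 and 44.4 TPM, against 63.5 and 70.7 in WT EpiLC. The 5 streak markers summed to at most 7.69 TPM and the 5 endoderm markers to at most 2.77 in these 4 libraries.

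Ovol2 itself was not low. It stood at 33.7 and 34.6 TPM in Ovol2KO-labelled EpiLC, against 9.51 and 12.7 in WT EpiLC, and rose by 1.55 ± 0.11 on the log2 scale (limma, BH adjusted p = 7.4e-08). The groups did not overlap, as in 51.3% of all tested genes. A gene-level value does not show whether part of the transcript was deleted, so it does not check the label, and every direction given here is that of the libraries labelled Ovol2KO. The other family members showed no change that passed the test. Ovol3 stood at 10.3 and 11.8 TPM against 13 and 10.4 in WT, and Ovol1 at 0.504 and 0.761 TPM against 0.804 and 0.58.

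Of the 13179 genes tested, 205 were called (1.56%), 84 higher (0.637%) and 121 lower (0.918%) in Ovol2KO-labelled EpiLC. In all, 24.8% of the tested genes had an unadjusted p under 0.05, the share against which such counts in gene lists are to be read. Another 1070 genes passed the adjusted p but changed by less than the fold threshold. Together 1275 of the 13179 tested genes passed the adjusted p, the background for counts by the adjusted p alone in gene lists. The median log2 fold change of all tested genes was 0.06, and the 2 groups did not overlap in 51.3% of them. After quantile normalization the split was 53 higher and 134 lower. Without WT replicate 2, the deepest of the 4 libraries, it was 194 higher and 144 lower, 338 in all. The falls were deeper than the rises, with 26 genes lower by at least 2 log2 units and 3 higher by as much. In bulk RNA, fewer cells of a type and less RNA per cell cannot be told apart.

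**Figure D1:**
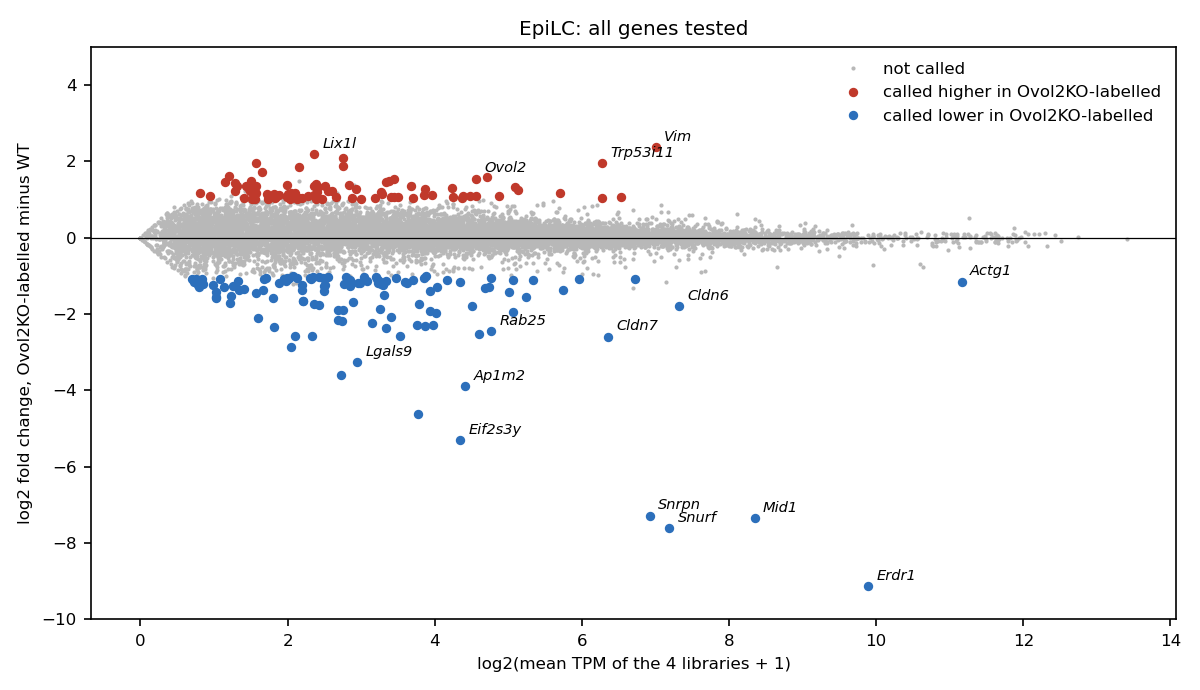
Log2 fold change in EpiLC (Ovol2KO-labelled minus WT) against the log2 mean TPM + 1 of the 4 libraries, 1 point a gene for 13179 genes, with called genes in red (higher, 84) and blue (lower, 121). Erdr1, Snurf, Mid1 and Snrpn lie far below all others, and Vim is the highest point.

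The strongest loss among epithelial genes was that of Ap1m2. It encodes the epithelial mu subunit of the AP-1 clathrin adaptor, which sorts proteins to the basolateral membrane. Ap1m2 stood at 1.47 and 1.91 TPM in Ovol2KO-labelled EpiLC, against 39.2 and 38.6 in WT EpiLC (log2 fold change −3.90 ± 0.17, limma, BH adjusted p = 6.84e-11). Ap1m1, its ubiquitous counterpart, went the other way: 79.2 and 63.8 TPM against 28.5 and 33.3 in WT (1.18 ± 0.10, limma, BH adjusted p = 5.39e-07). Ap1m1 was chosen after its values were seen.

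Among the genes that fell with Ap1m2 were 3 claudins and the polarity genes Crb3 and Llgl2. Cldn7, a claudin of the tight junction, had 22.6 and 21.6 TPM in Ovol2KO-labelled EpiLC and 145 and 133 in WT EpiLC (−2.60 ± 0.08, limma, BH adjusted p = 4.59e-13). Cldn6, the most abundant in WT of the 3 called claudins, had 74.2 and 66.7 TPM against 258 and 236 in WT (−1.80 ± 0.09). Cldn4 had 64 and 68.9 TPM against 150 and 134 (−1.09 ± 0.08). Each pair of Ovol2KO-labelled values lay below both WT values, as in all 121 called falls and in 17% of all tested genes. Crb3, a Crumbs protein that marks the apical membrane, had 13.4 and 11.9 TPM against 54 and 50.4 in WT (−1.96 ± 0.15). Llgl2, a basolateral polarity protein, had 23.6 and 25.4 TPM against 54.4 and 54.2 (−1.12 ± 0.09). Mal2, which takes part in transport to the apical surface, had 3.95 and 2.39 TPM against 15.3 and 12.5 (−1.86 ± 0.17). These are the 7 called members, all lower, of the 36 tested in the list of 40 epithelial adhesion and junction genes. By the adjusted p alone 16 fell and by limma-voom on recovered reads 8 were called lower. The list's median was −0.33, against 0.06 over all genes tested.

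Cdh1 and Epcam changed by less than the claudins. Cdh1, the adherens junction protein E-cadherin, had 370 and 364 TPM in Ovol2KO-labelled EpiLC and 461 and 451 in WT EpiLC (−0.31 ± 0.06, limma, BH adjusted p = 0.00336), a change too small to be called. Epcam, an epithelial adhesion molecule, had 276 and 304 TPM against 354 and 343 in WT (−0.27 ± 0.05, limma, BH adjusted p = 0.00305). Both pairs lay below WT, as in 17% of all tested genes, by margins far under those of the claudins. Cgn, the tight junction protein cingulin, had 26.6 and 21.1 TPM against 42.6 and 43.3 (−0.83 ± 0.10), and Spint2, an inhibitor of epithelial membrane proteases, 115 and 114 against 198 and 193 (−0.76 ± 0.06). The scaffold Tjp1 (0.07) and the adherens junction protein Ctnnd1 (0.04) did not pass the test. Cgn, Spint2, Tjp1 and Ctnnd1 were chosen after their values were seen.

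**Figure D2:**
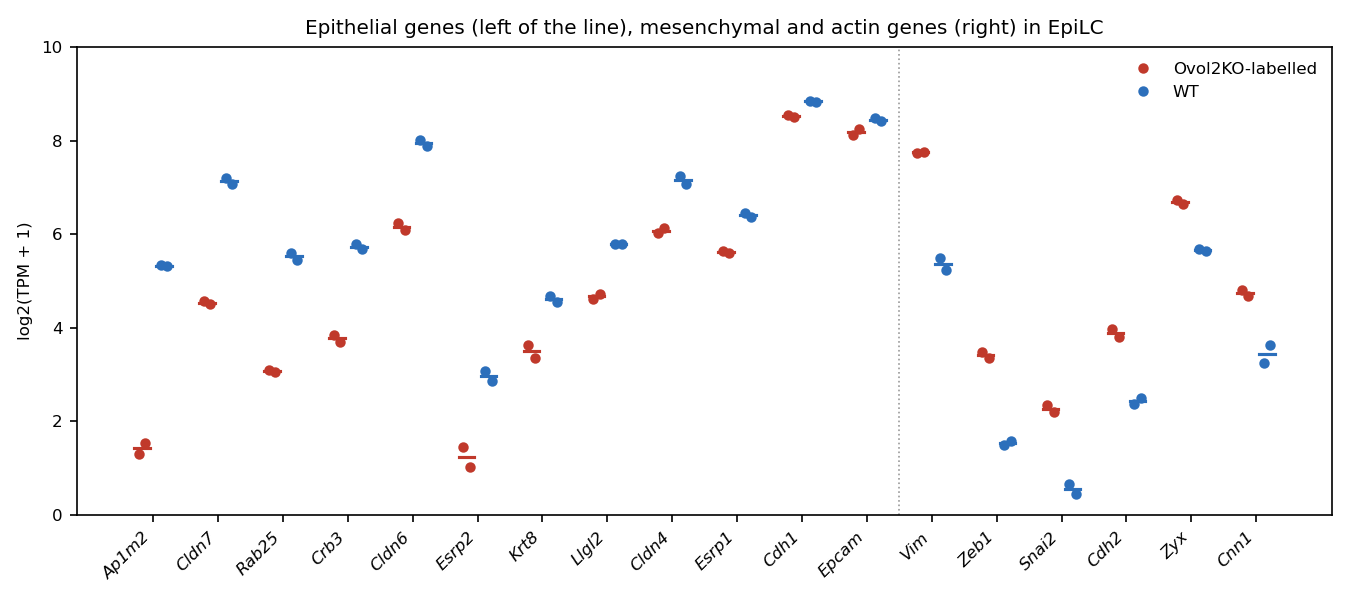
Log2(TPM + 1) of 18 genes in EpiLC, with each library as a point and the pair mean as a bar; Ovol2KO-labelled in red, WT in blue. In the Ovol2KO-labelled pair Ap1m2, Cldn7 and Rab25 drop by the widest margins, Cdh1 and Epcam by narrow ones, and Vim stands highest above WT.

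Most epithelial regulators and keratins moved the same way, and 1 was called higher. Rab25, a small GTPase of epithelial recycling endosomes, had 7.58 and 7.29 TPM in Ovol2KO-labelled EpiLC, against 47.3 and 42.7 in WT EpiLC (−2.45 ± 0.13, limma, BH adjusted p = 9.5e-10). Esrp2, which directs epithelial splice forms, had 1.71 and 1.03 TPM against 7.42 and 6.3 (−1.74 ± 0.23). Its more abundant relative Esrp1 had 48.6 and 47.4 TPM against 86.8 and 81.8 (−0.80 ± 0.08, limma, BH adjusted p = 3.9e-06), again too small a change to be called. Esrp2 was thus the scarcer of the pair in both groups. Sfn, the epithelial protein stratifin, had 4.19 and 7.18 TPM against 26.4 and 23.2 (−1.98 ± 0.18). Rbm47, an RNA-binding protein, had 1.04 and 0.509 TPM against 3.66 and 3.44 (−1.37 ± 0.19), and the transmembrane protein gene Tmem125 had 1.96 and 1.78 against 9.08 and 10.3 (−1.89 ± 0.25).

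Among keratins, Krt8 had 11.4 and 9.17 TPM against 24.5 and 22.4 in WT (−1.12 ± 0.14), and Krt7 2.42 and 3.83 against 8.45 and 8.41 (−1.22 ± 0.20). Krt18, the partner of Krt8, had 39.3 and 46.1 TPM against 77 and 90.9 (−0.96 ± 0.11, limma, BH adjusted p = 2.19e-05). These keratins sat near the fold threshold: without Ovol2KO replicate 2 Krt8 was at −0.97 and Krt18 at −1.07, without Ovol2KO replicate 1 Krt7 was at −0.97, and without WT replicate 1 Krt18 was at −1.08. Krt19 was the 1 called higher. It was a low gene just over the fold threshold, with 2.92 and 2.81 TPM against 0.424 and 1.57 in WT (1.01 ± 0.27, limma, BH adjusted p = 0.0243). Krt19 was chosen after its values were seen, and its call was not examined with single libraries left out. In all, 7 of 17 tested members of the list were called lower and 1 higher, with a median of −0.90. By the adjusted p alone 12 were lower and 1 higher. Grhl2, a transcription factor that maintains epithelial genes, had 24.4 and 22.3 TPM against 32.6 and 29.9 (−0.41 ± 0.09, limma, BH adjusted p = 0.011).

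The promoters of several of these genes are shown because they carry the CACCTG E-box to which Zeb and Snail factors bind, and those of Lix1l and Fez1, a pair of the strongest rises described further on, because they carry CCGTTA, the core of the OVO family site. Each sequence covers 250 bases before to 20 after a RefSeq start (GRCm38.p6), on the gene's strand, with CACCTG or its reverse complement CAGGTG and CCGTTA or its reverse complement TAACGG in capitals. Of several windows of a gene, the one with most matches is given, and of equals, as for Crb3 and Fez1, the first by position.
Ap1m2, chr9:21312314-21312583, minus strand: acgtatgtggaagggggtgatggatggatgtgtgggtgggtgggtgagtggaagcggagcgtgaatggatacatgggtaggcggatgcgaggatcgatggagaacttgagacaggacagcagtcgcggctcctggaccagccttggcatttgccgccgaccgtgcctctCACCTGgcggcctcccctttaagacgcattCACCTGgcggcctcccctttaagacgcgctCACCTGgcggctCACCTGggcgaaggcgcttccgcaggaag
Cldn7, chr11:69965171-69965440, plus strand: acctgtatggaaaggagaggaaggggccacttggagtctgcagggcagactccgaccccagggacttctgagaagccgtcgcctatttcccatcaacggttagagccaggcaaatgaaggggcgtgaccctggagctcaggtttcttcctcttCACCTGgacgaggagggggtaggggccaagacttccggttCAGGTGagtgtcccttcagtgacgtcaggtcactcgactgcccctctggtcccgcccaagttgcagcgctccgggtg
Rab25, chr3:88548260-88548529, minus strand: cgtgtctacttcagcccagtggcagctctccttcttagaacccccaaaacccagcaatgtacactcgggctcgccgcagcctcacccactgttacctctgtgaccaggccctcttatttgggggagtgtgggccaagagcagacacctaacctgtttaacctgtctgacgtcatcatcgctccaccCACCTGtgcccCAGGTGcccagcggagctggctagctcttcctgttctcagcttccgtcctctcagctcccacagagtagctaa
Crb3, chr17:57061951-57062220, plus strand: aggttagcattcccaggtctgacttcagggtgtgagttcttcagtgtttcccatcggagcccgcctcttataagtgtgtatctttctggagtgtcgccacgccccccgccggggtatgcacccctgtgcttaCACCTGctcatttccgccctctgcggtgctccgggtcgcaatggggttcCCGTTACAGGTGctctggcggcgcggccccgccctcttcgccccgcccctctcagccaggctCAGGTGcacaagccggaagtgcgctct
Lix1l, chr3:96600883-96601152, plus strand: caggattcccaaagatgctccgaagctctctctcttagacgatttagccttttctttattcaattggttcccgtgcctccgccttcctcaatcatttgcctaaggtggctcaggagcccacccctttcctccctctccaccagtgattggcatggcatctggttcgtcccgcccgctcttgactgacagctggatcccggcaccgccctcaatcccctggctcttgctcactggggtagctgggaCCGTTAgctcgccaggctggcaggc
Fez1, chr9:36832490-36832759, plus strand: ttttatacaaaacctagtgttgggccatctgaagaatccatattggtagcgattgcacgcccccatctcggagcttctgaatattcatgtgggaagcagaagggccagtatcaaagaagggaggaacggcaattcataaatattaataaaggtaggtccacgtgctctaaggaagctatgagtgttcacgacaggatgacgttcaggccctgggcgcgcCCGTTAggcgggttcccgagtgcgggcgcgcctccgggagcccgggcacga

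In Ap1m2 the E-box occurs 4 times, starting at −81, −51, −21 and −9 from the start site. Cldn7 has it at −97 and −57, and Rab25 at −64 and −53. In Crb3 it starts at −118, −63 and −7, and the match at −63 directly follows a CCGTTA at −69. CCGTTA begins at −5 in Lix1l and at −31 in Fez1. Among the other largest rises with a window, Slc9a5 held CCGTTA, whereas Vim, Ovol2, Trp53i11, Plekho1, Pla2g2e, Spata33, Pcp2 and Fads6 held none. The 2 motifs share no letters where they meet, and both strands were searched.

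Windows of 300 bases were found for 62 of the 84 genes called higher, 97 of the 121 called lower and 10519 of the tested genes. CACCTG was in a window of 44 of the 97 genes called lower (45.4%), 9 of the 62 called higher (14.5%) and 2301 of all tested genes (21.9%). At least 2 copies were in 19 of those called lower (19.6%) and 3.19% of all tested. CCGTTA was in a window of 8 of the 62 called higher (12.9%), 10 of the 97 called lower (10.3%) and 4.50% of all tested. Among all 27025 genes with a window, tested or not, the shares were 22.6% for CACCTG and 3.15% for CCGTTA. These shares are descriptions: a match is not a bound site, and the windows were not compared by a test.

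Several mesenchymal genes rose, 5 of the 22 tested. Vim, the intermediate filament vimentin, had the highest fold change of the 13179 genes, with 213 and 216 TPM in Ovol2KO-labelled EpiLC and 44.2 and 36.8 in WT EpiLC (2.38 ± 0.07, limma, BH adjusted p = 1.45e-13). Zeb1, the E-box repressor named above, had 10.1 and 9.12 TPM against 1.81 and 1.97 in WT (1.88 ± 0.16, limma, BH adjusted p = 4.34e-07). Snai2, a Snail family repressor, had 4.09 and 3.57 TPM against 0.58 and 0.358 (1.72 ± 0.25, limma, BH adjusted p = 0.000207). Cdh2, N-cadherin, had 14.8 and 12.9 TPM against 4.14 and 4.63 (1.46 ± 0.17). In all 4 genes both Ovol2KO-labelled values were above both WT values, as in all 84 called rises and in 34.3% of all tested genes. With Cdh1 at 370 and 364 TPM, transcripts of both cadherins were present in the Ovol2KO-labelled pair.

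Of the 22 tested members of the list of 29 transition factors and mesenchymal genes, 5 rose and none was called lower by limma; at an unadjusted p under 0.05, 12 were higher and 1 lower, and limma-voom called 8 higher and 1 lower. The 1 that limma-voom called lower was Snai3, of the Snail family, and limma did not call it. The median was 0.45. Twist1 (5.49 and 4.06 TPM against 1.79 and 2.36 in WT; 0.91) and Twist2 (0.975 and 1.26 against 0 and 0.183; 0.96), both mesodermal factors, passed the adjusted p but not the fold threshold. Zeb2 had 0.43 and 0.59 TPM against 0 and 0.129 (0.51 ± 0.20, limma, BH adjusted p = 0.121), and was called higher with a pseudocount of 0.1 and by limma-voom. Snai1 (0.16), Fn1 (0.02) and Acta2 (−0.26) did not pass the test. The 6 fibroblast markers summed to 45 and 44.7 TPM in Ovol2KO-labelled EpiLC, against 24.1 and 29.8 in WT EpiLC. Nearly all of that sum is Thy1 (41.7 and 40.7 TPM against 22.2 and 28.3), while Lum and Postn are at 0 in all 4 libraries and Col1a1 and Col3a1 stay below 1 TPM. Of the 11 tested fibroblast feeder genes none was called by limma, 5 had an unadjusted p under 0.05, all higher, and limma-voom called 1.

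**Figure D3:**
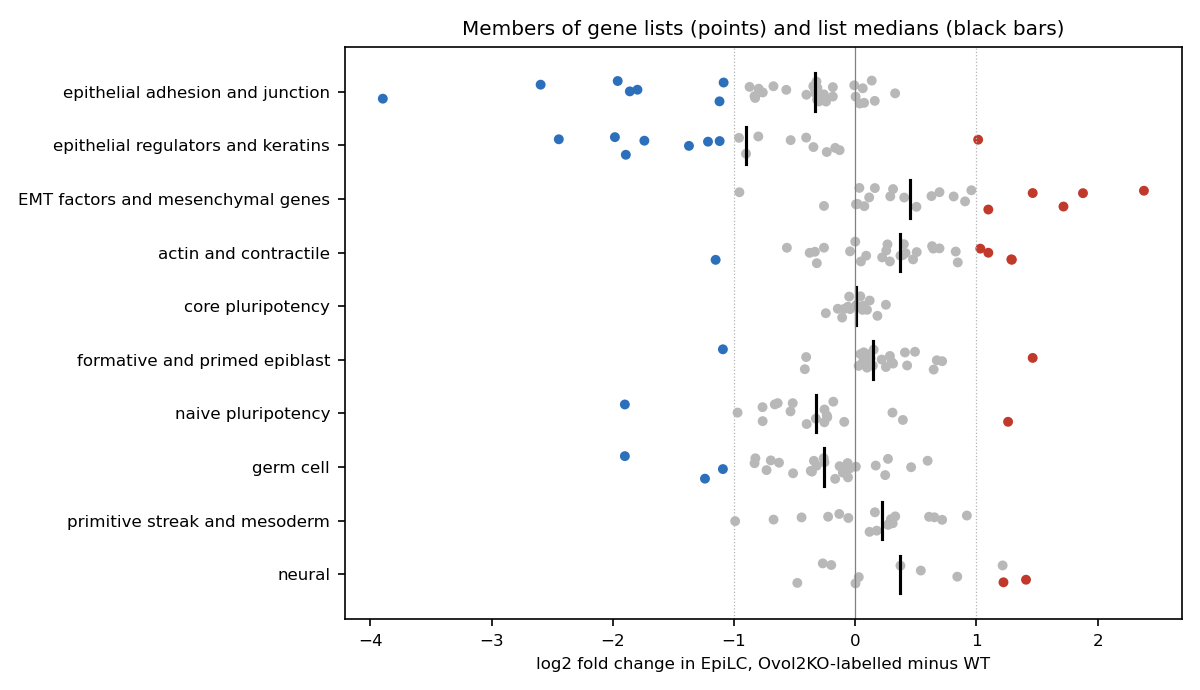
Log2 fold change in EpiLC (Ovol2KO-labelled minus WT) of the tested members of 10 gene lists, with called members in red (higher) and blue (lower), list medians as black bars and dotted lines at 1 and −1. Epithelial lists lean to the left, mesenchymal and actin lists to the right, and core pluripotency lies within −0.24 and 0.25.

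Actin-associated genes rose with vimentin, mostly by less than the fold threshold. Of 29 tested genes of actin and contractility, 4 rose and 1 fell, while by the adjusted p alone 16 were higher and 3 lower, and the median was 0.37. Cnn1, the actin-binding protein calponin, had 26.9 and 24.4 TPM in Ovol2KO-labelled EpiLC, against 8.51 and 11.4 in WT (1.29 ± 0.14, limma, BH adjusted p = 1.29e-05). Tagln, transgelin, had 41.6 and 36.5 TPM against 18 and 17.4 (1.10 ± 0.12). Zyx, the focal adhesion protein zyxin, had 105 and 99.5 TPM against 50.3 and 48.9 (1.03 ± 0.07), and was at 0.99 without Ovol2KO replicate 1. The fourth, Actc1, cardiac actin, had 3.94 and 1.99 TPM against 0.839 and 0.346 (1.29 ± 0.35, limma, BH adjusted p = 0.0268). Its call was lost without Ovol2KO replicate 1 (0.92), without WT replicate 1 (1.51) and without WT replicate 2 (1.06). Actg1, cytoplasmic gamma actin, fell to 1395 and 1451 TPM, against 3022 and 3310 in WT (−1.15 ± 0.08), whereas Actb, beta actin, chosen after its values were seen, had 4117 and 4045 TPM against 3335 and 3499 (0.26 ± 0.04). Actg1 and Actb are near-identical in coding sequence and actin pseudogenes are many, so how reads were divided between them is uncertain.

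Core pluripotency genes changed little. None of the 15 tested core pluripotency genes was called by limma, 3 had an unadjusted p under 0.05, limma-voom called 0, and the median was 0.01. Pou5f1 had 2030 and 1965 TPM in Ovol2KO-labelled EpiLC and 1839 and 1839 in WT EpiLC (0.12 ± 0.04, limma, BH adjusted p = 0.0557). Sox2 had 67.7 and 63.4 TPM against 67.9 and 67.8, and Nanog 35.1 and 26.3 against 29.9 and 23.8, with overlapping groups for Nanog. Among formative genes, which mark the state reached in EpiLC, Fgf5 had 93.8 and 97.4 TPM against 79.8 and 75.2 (0.30 ± 0.11, limma, BH adjusted p = 0.102). Otx2 had 104 and 108 TPM against 79.7 and 90.9 (0.31), Pou3f1 334 and 309 against 273 and 279 (0.22) and Dnmt3b 1242 and 1244 against 1149 and 1198 (0.08), and none of these passed the test. Of the 27 formative genes tested, Cdh2 was called higher and Dnmt3l lower. At an unadjusted p under 0.05, 12 of them were higher and 2 lower, and by the adjusted p 5 were higher and 2 lower. Their median was 0.145, against 0.06 over all genes tested. Dnmt3l, the cofactor of the de novo DNA methyltransferases, had 39.5 and 37.8 TPM against 92.1 and 75.8 in WT (−1.09 ± 0.11, limma, BH adjusted p = 3.58e-06), and was at −0.95 without WT replicate 1.

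The naive genes, which mark ESC, leaned lower without passing the fold threshold in most cases. Of 19 tested, 7 were lower by the adjusted p and 1 higher, and the median was −0.33. Zfp42 had 25.9 and 26.4 TPM in Ovol2KO-labelled EpiLC, against 38.5 and 38 in WT (−0.53 ± 0.12, limma, BH adjusted p = 0.00754), and Klf4 0.96 and 2.17 against 1.92 and 1.42, with overlapping groups. Gbx2, an epiblast and neural homeobox gene, rose, with 50.6 and 46.7 TPM against 19.7 and 19.7 (1.26 ± 0.13). Dppa3, a naive and germ cell gene also known as Stella, fell to 0.893 and 2.7 TPM, against 7.13 and 11 in WT (−1.90 ± 0.41, limma, BH adjusted p = 0.00796). Its call was lost without Ovol2KO replicate 1 (−1.42) and without WT replicate 2 (−1.62).

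Dppa3 was 1 of 3 germ cell genes called lower among 28 tested, with 1 passing the adjusted p upwards and a median of −0.26. Tdrd5, of the piRNA pathway, had 5.47 and 4.29 TPM against 13.3 and 12.4 in WT (−1.24 ± 0.21). Prdm1, the germ line determinant Blimp1, had 0.0702 and 0.212 TPM against 1.68 and 1.2 (−1.09 ± 0.20, limma, BH adjusted p = 0.0018), and was at −0.95 without WT replicate 1. These are low levels: Prdm1 was under 2 TPM in all 4 libraries.

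Genes of other fates were mostly low. Of 18 tested streak and mesoderm genes none was called by limma, 4 had an unadjusted p under 0.05, and limma-voom called 0. T had 0.625 and 0.539 TPM against 0.57 and 0.352 in WT, and Eomes 2.31 and 4.01 against 2.82 and 2.39. Only 3 of 36 Hox and Cdx genes passed the filter on low values, none was called by limma or limma-voom, and 1 had an unadjusted p under 0.05. Neural genes did include rises, 2 of 11 tested. Sox1, an early neural factor, had 6.61 and 6.56 TPM against 2.17 and 1.58 in WT (1.41 ± 0.15, limma, BH adjusted p = 8.97e-06), and Ncam1, a neural adhesion molecule, 2.93 and 2.93 against 0.742 and 0.625 (1.22 ± 0.17). The 4 neural markers summed to 156 and 150 TPM, against 105 and 99.6 in WT, nearly all of it Tubb3; Pax6 (0.422 and 0.348 TPM against 0.735 and 0.454) and Neurog2 stayed below 1 TPM. What share of cells carried Sox1 was not tested.

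The remaining strong rises belong to no list. Lix1l had 8.23 and 6.6 TPM in Ovol2KO-labelled EpiLC, against 0.697 and 0.958 in WT EpiLC (2.20 ± 0.22, limma, BH adjusted p = 3.58e-06). Fez1, an adaptor of kinesin transport in axons, had 12.5 and 7.3 TPM against 1.81 and 1.22 (2.08 ± 0.21), and Trp53i11, a p53-induced gene, 119 and 125 against 26.7 and 35.4 (1.95 ± 0.12). Their groups lie far apart, with even the lower Fez1 value in the Ovol2KO-labelled pair above 7 TPM. Plekho1, a membrane-binding adaptor, had 41.9 and 34.4 TPM against 14.6 and 9.79 (1.59 ± 0.14). Gnb4, a G protein beta subunit, had 13.4 and 17.2 TPM against 4.66 and 4.41 (1.55 ± 0.15), and Slc9a5, a sodium-proton exchanger, 14.6 and 14.2 against 3.91 and 5.04 (1.496 ± 0.18). Pla2g2e, a secreted phospholipase, had 2.36 and 2.59 TPM against 0 and 0.282 (1.62 ± 0.28).

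A further 3 of the 15 largest rises were of low genes and depended on single libraries. Spata33 (4.23 and 3.2 TPM against 0 and 0.464; 1.95) lost its call without Ovol2KO replicate 1 (1.79), without Ovol2KO replicate 2 (2.11) and without WT replicate 1 (1.68). Pcp2 (7.01 and 4.42 against 0 and 2.31; 1.86) lost it without the same 3 libraries (1.57, 2.14 and 0.99). Fads6 (3.1 and 3.12 against 0 and 1.16; 1.48) lost it without those 3 as well (1.49, 1.48 and 0.92).

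In other lists single genes were called. Id1, a target of BMP signalling, had 4.3 and 4.73 TPM against 1.87 and 1.16 in WT (1.15 ± 0.22, and 0.94 without WT replicate 2). The more abundant BMP target Id3 went the other way, with 33.4 and 39.4 TPM against 67.9 and 68.6 (−0.895 ± 0.17, limma, BH adjusted p = 0.00286), under the fold threshold. Of 32 tested BMP and TGF-beta family genes, 5 were higher and 3 lower at an unadjusted p under 0.05, and limma-voom called 1 higher and 2 lower. Pecam1, an adhesion molecule of endothelium and naive cells, had 5.92 and 6.46 TPM against 12.6 and 15.6 (−1.06 ± 0.16; −0.92 without WT replicate 2). Ddx58, the RNA sensor RIG-I, had 3.96 and 4.69 TPM against 11.4 and 9.87 (−1.13 ± 0.14). Oasl2, an interferon-induced gene, had 0.408 and 0.352 TPM against 3.72 and 1.69 (−1.37 ± 0.24; −0.96 without WT replicate 1). Fbn2, a fibrillin of the matrix, had 5.07 and 4.48 TPM against 2.5 and 1.36 (1.003 ± 0.20), which fell short of the fold threshold without Ovol2KO replicate 1 (0.93) and without WT replicate 2 (0.72). Stmn3, a neuronal stathmin, had 7.08 and 5.83 TPM against 2.57 and 2.75 (1.02 ± 0.24; 0.90 without Ovol2KO replicate 1 and 0.99 without WT replicate 1). Ankrd37, a hypoxia-induced gene, had 1.82 and 1.83 TPM against 5.8 and 3.99 (−1.04 ± 0.24) and lost its call without either Ovol2KO replicate (−1.04 and −1.05) and without WT replicate 1 (−0.82). In 14 of the 33 lists, those of WNT, Notch, FGF, cholesterol, stress and p53 genes among them, no member was called by limma; of their 224 tested entries 78 had an unadjusted p under 0.05, where 24.8% of all genes did, and limma-voom called 4.

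The deepest falls were of a different kind, with transcripts that were abundant in WT EpiLC nearly gone. Erdr1, a gene of the pseudoautosomal region, had 1.18 and 4.26 TPM in Ovol2KO-labelled EpiLC, against 1752 and 2042 in WT EpiLC (−9.13 ± 0.31, limma, BH adjusted p = 4.26e-08). Mid1, a ubiquitin ligase gene at the boundary of that region in mice, had 3.12 and 2.84 TPM against 650 and 642 (−7.34 ± 0.08). Snrpn, an imprinted gene expressed from the paternal allele, had 0.23 and 0.927 TPM against 233 and 247 in WT (−7.29 ± 0.12). Snurf, which shares its transcript, had 0.185 and 0.84 TPM against 281 and 298 (−7.62 ± 0.12). Reads of Snrpn and Snurf cannot be told apart, and Erdr1 has near-identical copies, so its level is uncertain. The same transcripts were as low in Ovol2KO-labelled ESC, where Erdr1 had 4.66 and 2.52 TPM against 2603 and 2172 in WT ESC, and Mid1 3.33 and 2.14 against 745 and 668.

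Y-linked genes were lost too: all 5 tested were called lower. Eif2s3y, a translation factor subunit, had no read in either Ovol2KO-labelled library and 39.2 and 37.9 TPM in WT EpiLC, at least 166-fold lower, and Uty, a histone demethylase gene, was at least 143-fold lower, counting a floor of 3 reads over the pair. Uba1y and Zfy1 were at 0 as well (at least 60.7-fold and 9.94-fold lower), and Ddx3y, an RNA helicase, had 0 and 0.119 TPM against 23.5 and 26.9. On the X chromosome 20 of 498 tested genes were called (4.02%, against 1.56% of all genes), 19 of them lower. Of these 19, 14 were Erdr1, Mid1 or members of the multicopy Xlr and Rhox4 families; 8 of 9 tested Xlr3, Xlr4 and Xlr5 genes and 4 of 4 Rhox4 genes were called lower. Among the 482 X-linked genes whose names begin with none of Erdr1, Mid1, Xlr3, Xlr4, Xlr5 and Rhox4, 6 were called (1.24%). Xlr5b had 0 and 0.487 TPM against 6.68 and 5.93 in WT, Xlr5c 0 and 1.02 against 6.48 and 8.68. The other knockout-labelled lines were low as well, since Xlr5b had 0 and 0.411 TPM in TKO, 0 and 0.546 in Ovol1KO and 0 and 0 in Ovol3KO. Rhox4b had 0 and 0 TPM in Ovol2KO-labelled EpiLC against 1.97 and 0.678 in WT. The Rhox4 calls rest on few WT reads: 3 and 5 for Rhox4b, 3 and 4 for Rhox4c, 4 and 7 for Rhox4d and 6 and 13 for Rhox4a. Rhox4b was not called by limma-voom. Copies within these families are near-identical, so how reads were divided is uncertain, and Rhox4b lost its call without either Ovol2KO replicate (−1.16 in both) and without WT replicate 1 (−0.75). Apart from these, Lgals9, galectin-9, had 1.04 and 0 TPM against 14.3 and 11.4 (−3.27 ± 0.24), Tmem40 2.33 and 2.23 against 21.2 and 16.4 (−2.58 ± 0.21), and Gpx2, a glutathione peroxidase, 6.68 and 5.69 against 45.4 and 35.6 (−2.52 ± 0.25).

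Lines that do not share the Ovol2KO label help to place these values. The comparisons of TKO, Ovol1KO and Ovol3KO with WT use the same WT pair, so their values are only set side by side. They called 331 genes in TKO (2.51%; 1.6% higher and 0.911% lower), 72 in Ovol1KO (0.546%; 0.357% higher and 0.19% lower) and 411 in Ovol3KO (3.12%; 1.89% higher and 1.23% lower). Each of the 3 comparisons called all 9 tested Xlr3, Xlr4 and Xlr5 genes lower than in WT. In TKO EpiLC Vim had 238 and 232 TPM, Zeb1 12.6 and 13.4, Ap1m2 1.17 and 0.536, and Cldn7 12.4 and 12.5. In Ovol1KO EpiLC Vim had 53 and 58.7 TPM, Zeb1 1.98 and 2.88, Ap1m2 27 and 26.7, and Cldn7 131 and 139. In Ovol3KO EpiLC Vim had 41.9 and 43.1 TPM, Zeb1 0.996 and 0.547, Ap1m2 50.1 and 47.5, and Cldn7 169 and 177. For these 4 genes TKO thus stood near Ovol2KO, and Ovol1KO and Ovol3KO near WT. Of the 84 rises, 51 were also called higher than in WT in TKO, 5 in Ovol1KO and 15 in Ovol3KO. Of the 121 falls, 73 were also called lower in TKO, 19 in Ovol1KO and 24 in Ovol3KO. Other genes departed from this pattern: Slc9a5 had 19.5 and 14.7 TPM in Ovol3KO, and Actg1 1161 and 1249 in Ovol3KO but 3534 and 3296 in TKO. The epithelial adhesion list had a median of −0.33 in Ovol2KO, −0.39 in TKO, 0.09 in Ovol1KO and 0.30 in Ovol3KO, each against WT.

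Direct comparisons leave the WT pair out but use the same Ovol2KO libraries, by which the genes called against WT were picked. Against the mean of Ovol1KO and Ovol3KO, 291 genes were called (2.21%), 91 higher (0.69%) and 200 lower (1.52%). They include 27 of the 84 genes higher than in WT and 78 of the 121 lower, and 11 of 36 epithelial adhesion genes, all lower. Zeb1 (2.12 ± 0.14), Vim (2.12 ± 0.06), Lix1l (1.97 ± 0.19) and Snai2 (1.81 ± 0.21) were among the 6 largest rises (limma, BH adjusted p at most 1.15e-05), with the histone genes Hist1h2ba (2.29 ± 0.54) and Hist1h2bm (1.95 ± 0.58), which did not pass the test against WT. The 6 largest falls were Erdr1 (−8.64), Snurf (−7.46), Snrpn (−7.13), Mid1 (−6.63), Ap1m2 (−3.80) and Lgals9 (−3.21).

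Against TKO, 77 genes were called (0.584%), 18 higher (0.137%) and 59 lower (0.448%); without Ovol2KO replicate 1 the number was 126. Ovol2 was among the rises: it had 33.7 and 34.6 TPM in Ovol2KO EpiLC and 9.21 and 11.2 in TKO EpiLC (1.65 ± 0.11, limma, BH adjusted p = 4.9e-08). Of the 84 genes higher than in WT, 5 were also higher than in TKO: Ovol2, Cnn1, Tlr2, Zfp365 and Xpa, the last 2 chosen after their values were seen. Cnn1 had 26.9 and 24.4 TPM against 11.8 and 12.2 in TKO, and Tlr2, a pattern recognition receptor, 8.06 and 6.38 against 1.48 and 1.3 (1.77 ± 0.21). Nnat, an imprinted gene, had 39.8 and 35.5 TPM against 1.85 and 2.09 in TKO and 28.8 and 27.7 in WT, Rasgrp2, a Ras family exchange factor, 107 and 108 against 27.6 and 32.3 in TKO and 120 and 113 in WT. Sp6 (1.47 ± 0.25) and Pomc (1.34 ± 0.35) complete the 6 largest rises.

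Of the 121 genes lower than in WT, 17 were lower than in TKO. In TKO EpiLC Erdr1 had 2606 and 2491 TPM, Mid1 599 and 683 and Snrpn 259 and 262, so these losses set Ovol2KO apart from TKO (−9.56 ± 0.31, −7.33 ± 0.08 and −7.41 ± 0.13, limma, BH adjusted p at most 3.77e-08). In Ovol1KO EpiLC Mid1 had 312 and 306 TPM and was called lower than in WT too (−1.06 ± 0.08, limma, BH adjusted p = 1.12e-06), and Erdr1 had 1015 and 1026 (−0.89 ± 0.31, limma, BH adjusted p = 0.163). Snurf (−7.74), Klhl13 (−2.64) and Eif2s3y (−2.21) complete the 6 largest falls. Klhl13, an X-linked adaptor of a ubiquitin ligase, had 38.4 and 29.9 TPM in Ovol2KO, 225 and 209 in TKO and 50.8 and 46.7 in WT. Eif2s3y was called lower than in WT in each of these lines, with 3.59 and 3.68 TPM in TKO, 3.42 and 5.94 in Ovol1KO and 8.24 and 6.9 in Ovol3KO, and among these 5 lines it was at 0 in both libraries of Ovol2KO only.

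**Figure D4:**
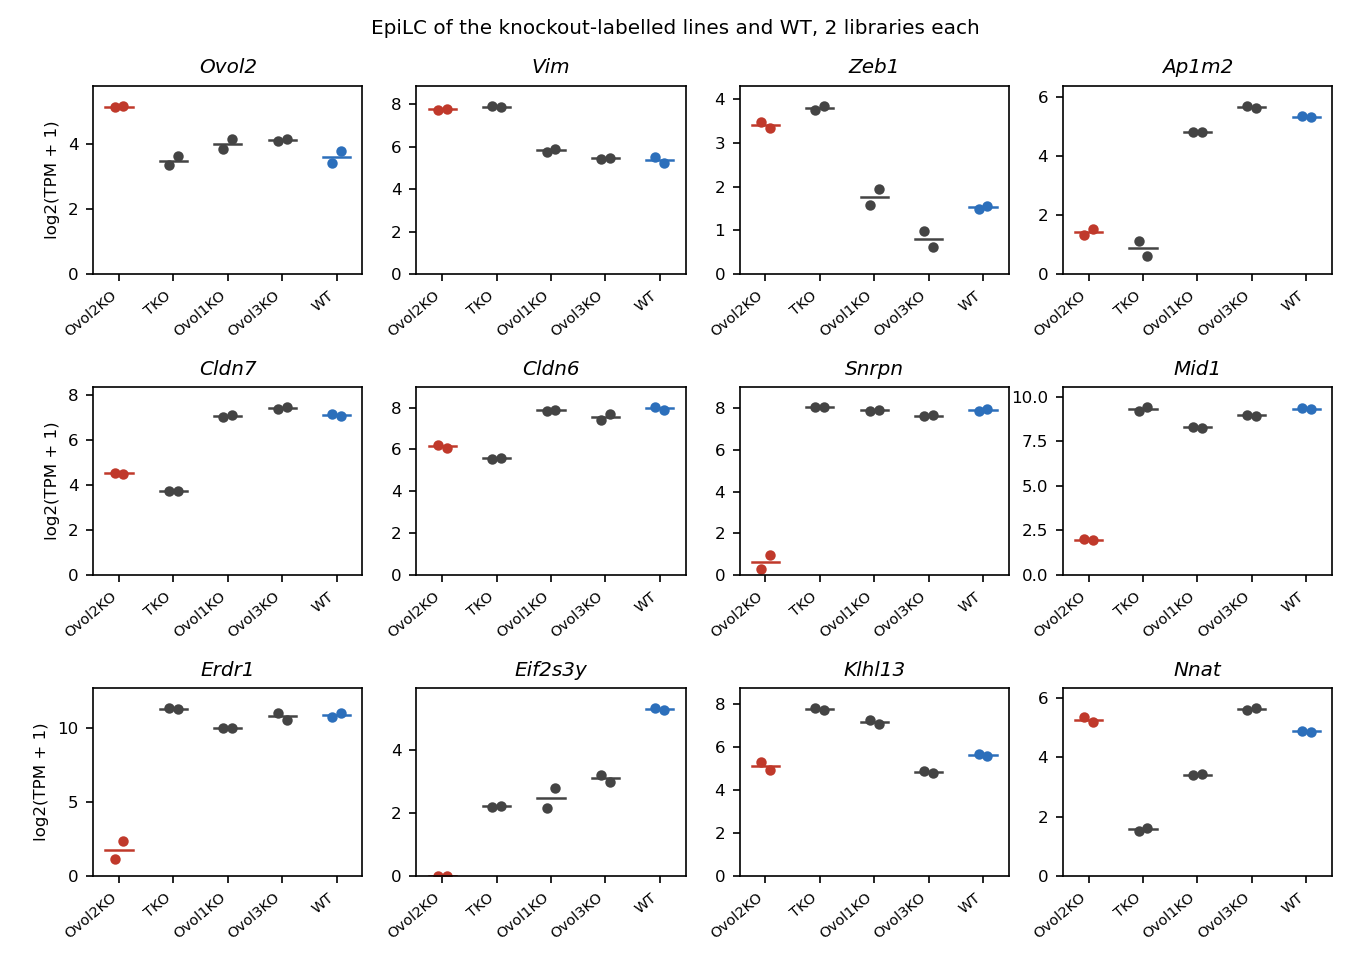
Log2(TPM + 1) of 12 genes in EpiLC labelled Ovol2KO (red), TKO, Ovol1KO, Ovol3KO (grey) and WT (blue), with each library as a point and the pair mean as a bar. Vim, Zeb1, Ap1m2, Cldn7 and Cldn6 group Ovol2KO with TKO, while Snrpn, Mid1 and Erdr1 are far lower in Ovol2KO than in the other 4 lines, with Mid1 also below WT in Ovol1KO.

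The comparison with ESC and PGCLC asked whether the difference from WT is the same at each stage, and used other WT libraries at each. In ESC 485 genes were called (3.81%), 0.879% of the tested genes higher and 2.93% lower, and in PGCLC 1178 (8.73%), 4.38% higher and 4.35% lower. Of the 121 genes lower in EpiLC, 57 were also lower in ESC, 47.1% of the EpiLC falls and 15.3% of the ESC falls. In PGCLC 61 were lower, 50.4% of the EpiLC falls and 10.4% of the PGCLC falls. Of the 84 rises, 5 were also higher in ESC (5.95% of the EpiLC and 4.46% of the ESC rises) and 25 in PGCLC (29.8% and 4.23%). Among the rises 3 were called at all 3 stages, Vim, Zeb1 and Cdh2, and among the falls 36. Whether the shares of falls and rises differ was not tested.

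Tested directly, the effect in EpiLC differed from that in ESC for 757 of 14416 genes (5.25%), 589 (4.09%) with a higher and 168 (1.17%) with a lower value in EpiLC; after quantile normalization the split was 324 and 291. The 84 rises were picked by EpiLC values that this test uses again, which favours a higher value in EpiLC. Of these 84, 44 were higher in EpiLC than in ESC by this test. Trp53i11 was one, with a log2 fold change of 1.95 in EpiLC and −0.78 in ESC (difference 2.73 ± 0.20, limma, BH adjusted p = 1.43e-11), and Zyx another (1.03 and −0.76). Zyx had 2.03 and 1.64 TPM in Ovol2KO-labelled ESC and 3.56 and 4.02 in WT ESC, far under its EpiLC level. Lix1l (2.20 in EpiLC, 0.74 in ESC) and Fez1 (2.08 and −0.15) also differed. The largest differences were of genes called lower than in WT in Ovol2KO-labelled ESC and not called in EpiLC. They were Atf3, a stress-induced factor (3.01 ± 0.58), Adm2, a peptide hormone gene (2.89 ± 0.53), Fxyd6, a regulator of the sodium pump (2.87 ± 0.19), Krtdap and the angiogenic factor Vegfa (2.82 ± 0.25). Krtdap (2.87 ± 1.01, limma, BH adjusted p = 0.0487) had 0 and 0 TPM in Ovol2KO-labelled ESC against 2.39 and 6.09 in WT ESC. In EpiLC Krtdap had 0 and 1.21 TPM against 0 and 0 in WT, where a fall could not show.

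In the other direction stood Dnmt3l (−3.20 ± 0.27), Enox1 (−3.05 ± 0.40), the growth factor Bmp4 (−2.79 ± 0.50), its target Id3 (−2.71 ± 0.24), Dusp27 (−2.46 ± 0.29) and Fgfbp1 (−2.41 ± 0.44). Dnmt3l changed direction: it was lower in Ovol2KO-labelled EpiLC (−1.09) and higher in ESC, with 57.9 and 68 TPM against 13.6 and 14.1 in WT ESC (2.11). Bmp4 had 1.28 and 0.83 TPM in Ovol2KO-labelled EpiLC against 1.17 and 1.08 in WT EpiLC, and 7.27 and 7.54 TPM in Ovol2KO-labelled ESC against 0.182 and 0.348 in WT ESC. Epithelial genes went both ways in this test. Esrp1 (difference 1.54), Epcam (1.06) and Krt7 (2.28) had the lower fold change in ESC, while Ap1m2 (−1.24), Esrp2 (−1.44), Sfn (−1.26) and Rbm47 (−1.23) had the lower one in EpiLC, as did Mal2 (−1.01), which was at most 1.04 TPM in these ESC.

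Between EpiLC and PGCLC the effect differed for 1112 genes (7.71%), 500 (3.47%) higher and 612 (4.25%) lower in PGCLC. The epithelial adhesion list had a median of −0.73 in ESC, −0.33 in EpiLC and −1.31 in PGCLC, with 14 of 35, 7 of 36 and 21 of 36 tested members called lower. Cdh1, at −0.31 in EpiLC, was at −3.00 in PGCLC, where it had 42.3 and 35.4 TPM against 312 and 320 in WT (difference −2.69 ± 0.13, limma, BH adjusted p = 8.06e-17). Cldn6 (−4.87 ± 0.44) and Cldn4 (−4.17 ± 0.29) were among the 6 largest differences downwards, with Eomes (−4.42 ± 0.35), a mesoderm and germ line factor, Apln (−4.42 ± 0.41), Pim2 (−3.79 ± 0.37) and Utf1 (−3.77 ± 0.27). Eomes, Pim2 and Utf1 had EpiLC fold changes of 0.18, 0.09 and 0.01 that did not pass the test. The largest differences upwards were Hoxb6 (4.61 ± 0.42), Cdx4 (4.52 ± 0.39), Plac1 (4.25 ± 0.54), Unc5c (4.09 ± 0.29), Hoxd9 (3.80 ± 0.43) and Dlk1 (3.75 ± 0.38), none of them called in EpiLC; Hoxb6, Unc5c and Hoxd9 were below the EpiLC filter.

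**Figure D5:**
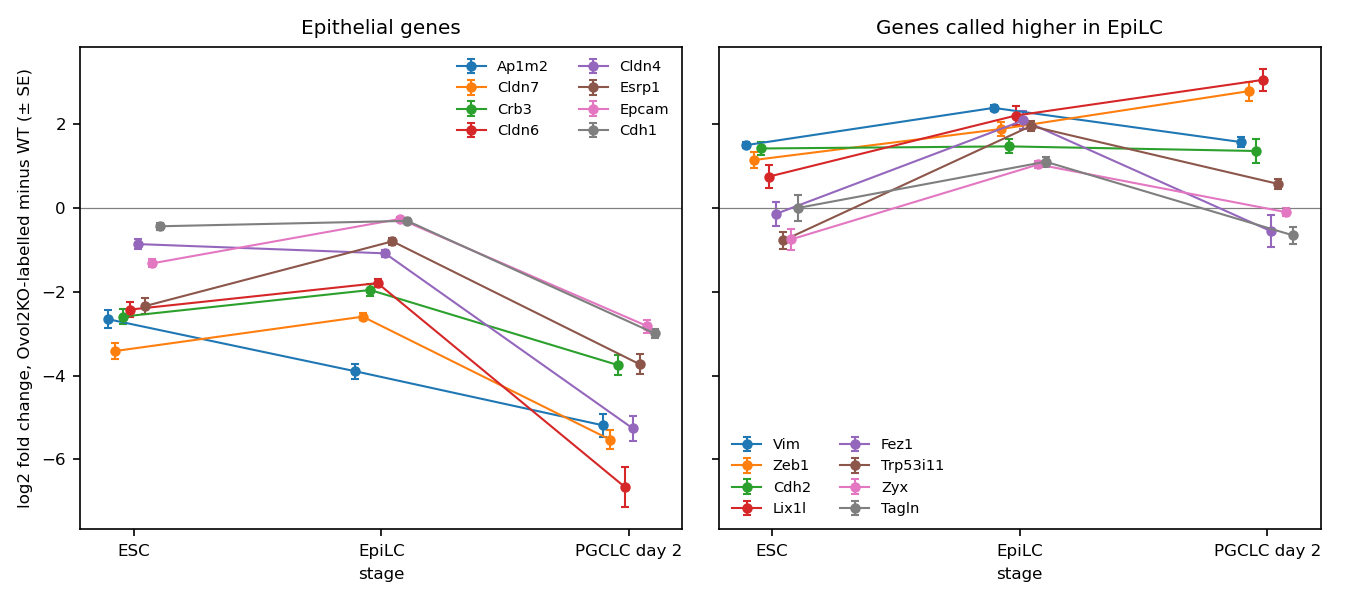
Log2 fold change ± SE (Ovol2KO-labelled minus WT) in ESC, EpiLC and day 2 PGCLC for 8 epithelial genes (left) and 8 genes called higher in EpiLC (right). Cdh1, Epcam and Esrp1 lie nearer to 0 in EpiLC than in PGCLC, Vim and Cdh2 are above 1 at each stage, and Fez1, Trp53i11, Zyx and Tagln peak in EpiLC.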

How the data were processed

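RNA was measured as poly(A) mRNA with a strand-marking kit, per the labels' protocols. The authors deposited 1 table of TPM values for 20036 genes in 54 libraries; HISAT2, featureCounts, edgeR and the build mm10 are named in the submitters' processing notes, with versions not given in the sources used here. From the TPM, log2(TPM + 1) was computed for genes at 1 TPM or more in at least 2 of the 18 EpiLC libraries. It was fitted with limma 3.58.1 (trend, robust, R 4.3.3) on the 18 libraries, which share 1 estimate of the spread with 9 residual degrees of freedom, and on all 54 for differences between stages. Whole reads were recovered from the TPM for 17973 of the 17973 genes above 0 (tolerance 0.001 reads), for depth and for limma-voom. Limits from 0 reads cover counting error only. With 2 against 2 libraries a permutation test cannot go below p = 0.33.

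Members and gene lists were chosen with earlier results of these data known. Named are fixed genes, the 15 largest called rises and falls, up to 5 called members of each list, and the 6 largest each way in the other comparisons. Xist, among the fixed genes, was below the filter. Llgl2, Thy1, Col1a1, Col3a1, Snai1, Fn1, Acta2, Twist1, Twist2, Tubb3, Pax6, Neurog2, Zfy1 and other genes outside this rule were chosen after their values were seen, as markers or list members.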

Additional observations from a re-analysis of the deposited data

Results flagged for a closer look

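The effect of the Ovol2KO label against WT was compared between stages in 1 fit of all 54 libraries (limma, BH adjustment), and each gene given here had an effect that differed by at least 1 on the log2 scale with an adjusted p under 0.05. Values are differences of log2 fold changes. Their causes were not tested.

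For EpiLC minus ESC, 20 of the named genes had the higher effect in EpiLC. The differences were Atf3 3.01, Adm2 2.89, Fxyd6 2.87, Krtdap 2.87, Vegfa 2.81, Trp53i11 2.73, Krt7 2.28, Fez1 2.23, Fads6 2.21, Slc9a5 1.93, Zyx 1.79, Pla2g2e 1.62, Esrp1 1.54, Lix1l 1.46, Cnn1 1.42, Apln 1.27, Id1 1.26, Tagln 1.10, Epcam 1.06 and Gnb4 1.0. The lower effect in EpiLC was found for 18 genes, with differences of Dnmt3l −3.20, Enox1 −3.05, Bmp4 −2.79, Id3 −2.71, Dusp27 −2.46, Fgfbp1 −2.40, Ddx58 −2.12, Dppa3 −1.63, Oasl2 −1.49, Esrp2 −1.44, Uba1y −1.42, Sfn −1.26, Ap1m2 −1.24, Snurf −1.24, Rbm47 −1.23, Ankrd37 −1.20, Snrpn −1.17 and Mal2 −1.01. Among the genes with the higher effect in EpiLC are actin-associated genes (Tagln, Cnn1, Zyx) and most of the strongest rises that belong to no list. Among those with the lower effect are epithelial genes (Ap1m2, Esrp2, Sfn, Mal2, Rbm47) and BMP-related genes (Bmp4, Id3), although Id1, also a BMP target, went the other way. The actin-associated genes, the strongest rises and the epithelial genes were named for calls in EpiLC. The differences use the same EpiLC libraries, so these leanings are partly set by that choice. Bmp4 was not called in EpiLC and had 7.27 and 7.54 TPM in Ovol2KO-labelled ESC, against 0.182 and 0.348 in WT ESC.

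For PGCLC minus EpiLC, 20 genes had the higher effect in PGCLC, with differences of Hoxb6 4.61, Cdx4 4.52, Plac1 4.25, Unc5c 4.08, Hoxd9 3.79, Dlk1 3.75, Lgals9 3.28, Oasl2 2.64, Uba1y 2.53, Gpx2 2.19, Bmp4 2.07, Xlr5c 1.83, Xlr5b 1.61, Tmem40 1.30, Pecam1 1.27, Mid1 1.23, Gnb4 1.09, Dusp27 1.08, Vegfa 1.06 and Krt18 1.03. The lower effect in PGCLC was found for 33 genes, with differences of Cldn6 −4.87, Eomes −4.42, Apln −4.42, Cldn4 −4.17, Pim2 −3.79, Utf1 −3.77, Fgf5 −2.98, Esrp1 −2.93, Cldn7 −2.93, Otx2 −2.82, Nanog −2.75, Cdh1 −2.69, Fads6 −2.66, Fez1 −2.64, Epcam −2.56, Sfn −2.39, Zfp42 −2.21, Ovol2 −2.13, Grhl2 −1.94, Pla2g2e −1.84, Crb3 −1.79, Stmn3 −1.78, Cnn1 −1.77, Tagln −1.76, Id1 −1.74, Tdrd5 −1.49, Sox1 −1.45, Sox2 −1.45, Trp53i11 −1.38, Pou5f1 −1.38, Ap1m2 −1.29, Zyx −1.14 and Dnmt3b −1.09. In PGCLC 12 of these genes, and in ESC 7 of those compared with ESC, were under 4 TPM in all 4 libraries, and where the gene fell in EpiLC a like fall could hardly show there. In PGCLC they are Lgals9, Uba1y, Tmem40, Xlr5b, Xlr5c, Gpx2, Pecam1 and Dusp27 on the higher side and Fez1, Pla2g2e, Fads6 and Sox1 on the lower. In ESC they are Pla2g2e, Tagln, Cnn1 and Apln on the higher side and Uba1y, Mal2 and Oasl2 on the lower. Some genes were low in EpiLC, where a fall could hardly show either. In Ovol2KO-labelled and WT EpiLC, Bmp4 was at most 1.28 TPM, Apln 1.22, Krtdap 1.21, Plac1 1.03 and Cdx4 0.687. Hoxb6, Hoxd9 and Unc5c were below the EpiLC filter. Those with the lower effect in PGCLC include epithelial genes such as Cldn6, Cldn4, Cldn7, Esrp1 and Cdh1 and pluripotency or epiblast genes such as Fgf5, Otx2, Nanog and Utf1.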

How the results depend on the processing

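Of the 79 named genes, 60 were called, 43 of these kept the call under every alternative that tested them, and no called gene changed sign in any. The number of genes called in Ovol2KO-labelled against WT EpiLC was 205 and became 350 with a pseudocount of 0.1, 300 with limma-voom on recovered reads (168 shared), 187 with quantile normalization, 197 with no filter on low values, 165 with only the 4 libraries, 175 with 10 and 195 with all 54. With 0.1, the comparison with Ovol1KO and Ovol3KO gave 583 and that with TKO 148. Leaving out 1 library gave 156 to 338 against WT, 531 to 946 for EpiLC minus ESC, 973 to 1153 for PGCLC minus EpiLC, 301 to 366 against Ovol1KO and Ovol3KO, and 67 to 126 against TKO. The causes were not tested.

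Ovol2KO and WT share replicate numbers, but deviations of same-numbered libraries correlated at 0.026, so the numbers were not taken as pairs. With the replicate number as a block, which left out 2 EpiLC libraries with no number, 205 genes were called, 203 of them shared, and the other comparisons gave 741, 1093, 289 and 77. The block ended the call of Pcp2 (1.86, adjusted p = 0.0576, limma) and of no other named gene.

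Each group has 1 library under 4 M reads, which limits the precision of low genes. The calls of Spata33, Pcp2, Fads6, Rhox4b, Ankrd37 and Actc1 were each lost without any of 3 single libraries.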
